A study of Mus musculus with 12 samples.

Results

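Cpa3, Tpsab1, Tpsb2, Cma1, Mcpt4, Kit, Ms4a2, Fcer1a and Hdc are the mouse genes for the proteases, surface receptors and histamine-forming enzyme by which connective tissue mast cells are usually recognised. These 9 genes were taken by name, with every probe set that the array carries for each of them. They are 9 of the 18193 genes named on the array, they have 13 probe sets in all, and all 9 were among the 15493 genes bright enough to be tested.

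The series compared 344SQ mouse lung adenocarcinoma cells that resist PD-1 blockade with the parental 344SQ cells they are set against, grown as tumours in mice. The 4 groups were resistant tumours under anti-PD-1, resistant tumours under control IgG, parental tumours under anti-PD-1, and parental tumours under control IgG, with 3 arrays each. Female 129sv/ev mice received the cells under the skin of the right flank, 5 mice per group, and antibody at 10 mg/kg on days 4 and 7, and whole tumours were taken on day 11. The values are log2 expression on an Affymetrix mouse array, already normalized by the authors, so that a difference of 1 is a 2-fold change.

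Each line stands for 1 cell line in 1 host strain, so resistance cannot be told apart from any other difference between the lines. The labels do not tie the arrays to single mice, so the p-values speak to the variation among arrays, which may be partly technical. Whole tumours were measured, so fewer mast cells and less RNA per mast cell cannot be told apart. The label of the tissue was checked against epithelial markers. The mean of Epcam, Cdh1, Krt8, Krt18 and Krt19 lay between 11.21 and 12.08 on every array.

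Mast cells are tissue-resident immune cells that mature from marrow progenitors under stem cell factor, the ligand of the receptor tyrosine kinase Kit. Antigen that crosslinks IgE on the high-affinity receptor, built from the alpha chain Fcer1a, the beta chain Ms4a2 and the gamma chain Fcer1g, makes them empty granules packed with carboxypeptidase A3, tryptases, chymases and histamine. In tumours they gather mostly at the edge and along vessels, and both tumour-promoting and tumour-restraining roles have been described. Several of the genes are not exclusive to mast cells: Kit also marks melanocytes and blood progenitors, Fcer1a and Ms4a2 mark basophils, and Hdc is used by basophils and immature neutrophils.

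Of the 9 genes, 7 had lower levels in resistant than in parental tumours over both antibodies: the tryptases Tpsab1 and Tpsb2, carboxypeptidase Cpa3, the chymase Cma1, and the receptor genes Kit, Ms4a2 and Fcer1a. The count of 7 of 9 compares with 15% of all genes tested that were lower in that comparison (limma, adjusted p under 0.05). Of these 7, Ms4a2 was bright enough to be tested only through its parental arrays. Their differences ran from -0.45 for Kit to -1.34 for Tpsab1, and the median over all 9 genes was -0.76, beside a median of 0.08 over all genes. Under anti-PD-1 alone 5 of 9 were lower, beside 11.9% of all genes, with a median of -1.08 for the 9 genes and 0.07 for all genes. Under IgG alone limma called 0 of 9, beside 7.31% of all genes lower, and 4 of 9 had an unadjusted p under 0.05, beside 33.1% of all genes in either direction. Anti-PD-1 against IgG gave 0 called members in either line.

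The stretch before the start site of these genes is shown for Cpa3, Mcpt4, Fcer1a and Ms4a2, because mast cell genes are classically bound by GATA factors and these are the members whose 250 upstream bases hold a GATA motif. Upstream sequence from RefSeq, assembly GRCm38.p6, was found for 7 of the 9 genes, and those of Tpsab1 and Tpsb2 are not shown. Each is written 5′ to 3′ on the strand of its gene, with capitals marking AGATAA or TGATAA, or the same letters on the opposite strand. They lie at chr3:20242182-20242431 for Cpa3, chr14:56062311-56062560 for Mcpt4, chr1:173227230-173227479 for Fcer1a and chr19:11623720-11623969 for Ms4a2, all on the minus strand.
Cpa3: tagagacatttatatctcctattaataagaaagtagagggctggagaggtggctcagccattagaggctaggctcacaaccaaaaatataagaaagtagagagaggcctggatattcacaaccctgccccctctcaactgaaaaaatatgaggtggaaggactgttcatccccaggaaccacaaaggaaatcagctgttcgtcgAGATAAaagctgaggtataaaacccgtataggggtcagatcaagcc
Mcpt4: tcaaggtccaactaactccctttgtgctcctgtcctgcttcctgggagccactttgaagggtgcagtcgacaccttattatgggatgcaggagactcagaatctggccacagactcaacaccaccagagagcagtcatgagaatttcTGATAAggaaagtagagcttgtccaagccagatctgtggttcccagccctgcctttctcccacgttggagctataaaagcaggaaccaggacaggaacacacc
Fcer1a: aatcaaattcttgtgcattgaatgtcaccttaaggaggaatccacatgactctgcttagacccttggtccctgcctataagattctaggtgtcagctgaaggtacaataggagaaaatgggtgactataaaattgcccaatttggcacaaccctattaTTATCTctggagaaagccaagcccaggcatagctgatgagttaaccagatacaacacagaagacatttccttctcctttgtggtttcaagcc
Ms4a2: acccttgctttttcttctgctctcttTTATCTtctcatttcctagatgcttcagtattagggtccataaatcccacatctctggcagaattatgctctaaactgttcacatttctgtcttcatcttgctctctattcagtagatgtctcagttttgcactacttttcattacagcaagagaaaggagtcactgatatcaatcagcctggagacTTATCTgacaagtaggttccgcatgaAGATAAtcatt

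Counted back from the start site, Cpa3 has its AGATAA at -46, ahead of a TATAAA at -31, and another TATAAA on the opposite strand at -242. Mcpt4 has its TGATAA at -103 and a TATAAA at -32. Fcer1a has AGATAA on the opposite strand at -92, a TATAAA at -125 and the E-box form CATGTG on the opposite strand at -208. Ms4a2 has AGATAA on the opposite strand at -224 and -37 and on its own strand at -11. The motifs searched, on both strands and allowed to overlap, were the GATA forms AGATAA and TGATAA, the E-box forms CATGTG and CACGTG, and the TATA box as TATAAA. Over the same 250 bases of all 27025 genes in the table, 18.8% hold AGATAA or TGATAA, 14.3% hold TATAAA, 13.8% hold CATGTG and 6.86% hold CACGTG. Of these 4 members Cpa3, Fcer1a and Ms4a2 were lower in resistant tumours over both antibodies, and the difference of Mcpt4 did not pass the test. Of the members whose sequence holds no GATA form, Cma1 and Kit were lower too, and Hdc did not pass the test. A match describes these letters in this window and says nothing of binding.

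The tryptases gave the clearest differences. Tpsab1 encodes the tryptase known as mouse mast cell protease 7 and Tpsb2 the one known as mouse mast cell protease 6, trypsin-like enzymes stored as tetramers with heparin. Tpsab1 levels were 6.49, 6.36 and 7.07 in resistant tumours under anti-PD-1 and 7.13, 6.84 and 6.96 in resistant tumours under IgG. In parental tumours they were 8.31, 7.63 and 9.0 under anti-PD-1 and 7.30, 8.46 and 8.19 under IgG. Every resistant array lay below every parental one. Tpsab1 was the 1 member of 9 with no overlap between the lines over both antibodies, beside 6.65% of all genes with resistant tumours wholly lower. Its mean was 6.81 ± 0.32 in resistant and 8.15 ± 0.61 in parental tumours (SD, n = 6 each), a log2 difference of -1.34 ± 0.25 (SE), or 2.53-fold lower (limma, adjusted p = 0.00172). Under anti-PD-1 the difference was -1.67 ± 0.35 (SE; limma, adjusted p = 0.0047) and under IgG it was -1.01 ± 0.35 (SE; limma, adjusted p = 0.0749).

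Tpsb2 levels were 5.42, 5.53 and 5.89 in resistant tumours under anti-PD-1 and 6.04, 6.25 and 5.96 in resistant tumours under IgG. In parental tumours they were 6.77, 6.35 and 7.35 under anti-PD-1 and 5.99, 6.86 and 6.69 under IgG. The lowest parental array, parental IgG array 1, sat among the resistant IgG arrays, and the other parental arrays were above all resistant ones. The mean was 5.85 ± 0.32 in resistant and 6.67 ± 0.46 in parental tumours (SD, n = 6 each), a log2 difference of -0.82 ± 0.19 (SE), or 1.77-fold lower (limma, adjusted p = 0.00546). Under anti-PD-1 it was -1.21 ± 0.26 (SE; limma, adjusted p = 0.0056). Neither tryptase lost its call over both antibodies or under anti-PD-1 when any 1 array was left out. A second Tpsb2 probe set stayed near the dim threshold, between 3.19 and 3.66, and was above it on 6 of 12 arrays. It differed by -0.09 ± 0.08 between the lines (SE; limma, adjusted p = 0.443). The mean of both probe sets differed by -0.45 over both antibodies and by -0.70 under anti-PD-1, and still passed the test in each. The 2 tryptase genes are close copies, and short probes made for one can bind transcripts of the other, which was not tested.

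Cpa3, the carboxypeptidase that trims peptides after the chymases have cut them, was lower in resistant tumours. Its levels were 5.38, 5.33 and 6.16 in resistant tumours under anti-PD-1 and 6.14, 6.49 and 5.90 in resistant tumours under IgG. Parental tumours had 6.66, 6.47 and 7.21 under anti-PD-1 and 6.0, 7.76 and 7.57 under IgG. The lines overlapped because parental IgG array 1 at 6.0 and parental anti-PD-1 array 2 at 6.47 were below resistant IgG array 2 at 6.49. Means were 5.90 ± 0.46 in resistant and 6.94 ± 0.68 in parental tumours (SD, n = 6 each), a log2 difference of -1.05 ± 0.29 (SE), or 2.06-fold lower (limma, adjusted p = 0.0156). This call stood with any 1 array left out. Under anti-PD-1 the 2 lines did not overlap, yet the difference of -1.16 ± 0.41 (SE) missed the threshold (limma, adjusted p = 0.0520), and it passed without resistant anti-PD-1 array 3, with a difference of -1.43, and with arrays centred on their medians, at -1.20. It also passed with array weights, at -0.97, with the replicate number as a block, in a fit of those 2 groups alone, and without parental IgG array 1 and parental anti-PD-1 array 3 together, at -0.94.

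Of the 2 chymases 1 passed the test, and the difference between them was not tested. Cma1, the chymase known as mouse mast cell protease 5, is stored together with Cpa3. Its levels were 5.73, 5.67 and 6.33 in resistant tumours under anti-PD-1 and 6.02, 6.50 and 6.08 in resistant tumours under IgG, against 6.76, 6.78 and 7.42 in parental tumours under anti-PD-1 and 5.90, 7.58 and 7.09 in parental tumours under IgG. Parental IgG array 1 was again the low parental array, below the other 5 parental arrays and below 4 of the resistant ones. Means were 6.06 ± 0.33 in resistant and 6.92 ± 0.60 in parental tumours (SD, n = 6 each), a log2 difference of -0.87 ± 0.26 (SE; limma, adjusted p = 0.0217). Under anti-PD-1 it was -1.08 ± 0.37 (SE; limma, adjusted p = 0.0434). The call over both antibodies was lost without parental IgG array 3 or resistant anti-PD-1 array 2, and the difference lay between -1.11 and -0.69 with 1 array left out. The call under anti-PD-1 was lost without any of 5 of the 6 arrays compared, the exception being resistant anti-PD-1 array 3, with differences between -1.29 and -0.86.

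Mcpt4, the chymase regarded as the mouse counterpart of human chymase in function, did not pass the test in any of the 6 comparisons, though it did under IgG in the fit with array weights, at -0.62 (limma, adjusted p = 0.0462). Levels were 5.28, 5.26 and 5.55 in resistant tumours under anti-PD-1 and 5.33, 6.05 and 5.30 in resistant tumours under IgG. In parental tumours they were 5.51, 5.46 and 6.48 under anti-PD-1 and 5.39, 6.42 and 6.04 under IgG. Each group but resistant anti-PD-1 had 1 or more arrays above 6 and the rest near 5.4, so that the spread within groups was as wide as the gap between them. The log2 difference over both antibodies was -0.42 ± 0.23 (SE), with a 95% interval from -0.92 to 0.07 (limma, adjusted p = 0.158).

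**Figure D1:**
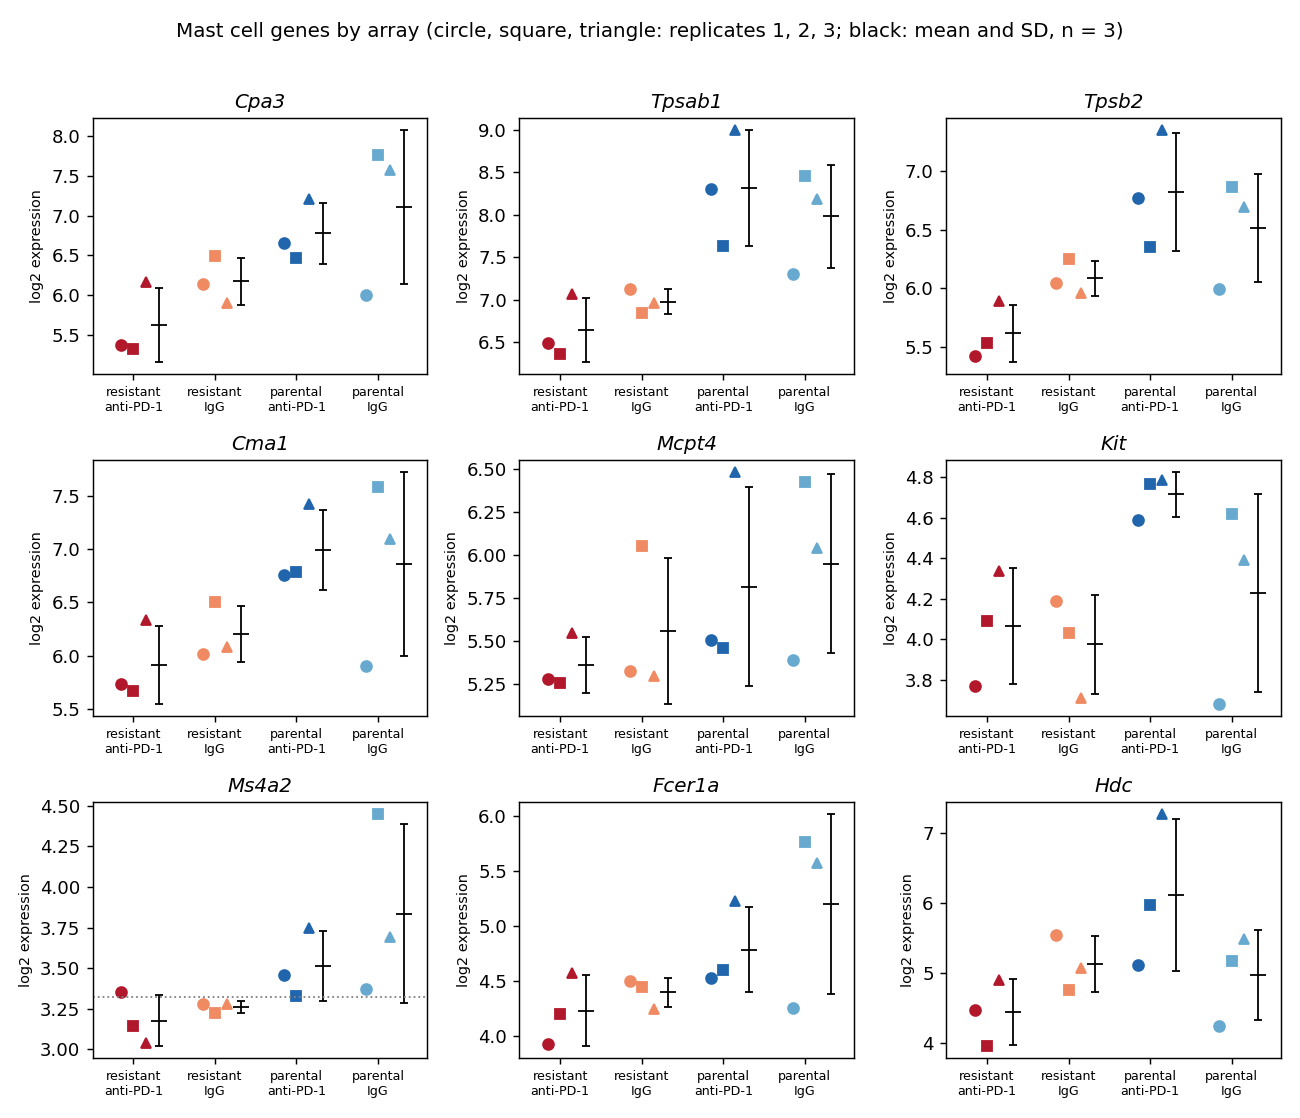
Log2 expression of each of the 9 genes (vertical axis) on the 3 arrays of each group, resistant groups at left and parental groups at right. Markers are single arrays, black bars are the mean and SD, and the dotted line in the Ms4a2 panel is the dim threshold of 3.32. For Tpsab1 every resistant array is below every parental one, and parental IgG array 1 is the lowest parental array for 8 of the 9 genes.

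Of the receptor genes, Fcer1a and Ms4a2 serve the IgE receptor and Kit the stem cell factor signal. Fcer1a levels were 3.93, 4.20 and 4.57 in resistant tumours under anti-PD-1 and 4.50, 4.45 and 4.25 in resistant tumours under IgG. Parental tumours had 4.53, 4.60 and 5.23 under anti-PD-1 and 4.26, 5.76 and 5.57 under IgG. The 3 arrays above 5 were all parental. The mean was 4.32 ± 0.24 in resistant and 4.99 ± 0.61 in parental tumours (SD, n = 6 each), a log2 difference of -0.68 ± 0.24 (SE; limma, adjusted p = 0.0451). This call was lost without any 1 of 9 arrays: parental IgG 2 and 3, parental anti-PD-1 2 and 3, the 3 resistant IgG arrays, and resistant anti-PD-1 1 and 2, and the difference lay between -0.91 and -0.53 over all arrays left out in turn.

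Ms4a2 was close to the limit of measurement. Its brighter probe set read 3.35, 3.14 and 3.04 in resistant tumours under anti-PD-1 and 3.28, 3.22 and 3.28 in resistant tumours under IgG, against 3.46, 3.33 and 3.75 in parental tumours under anti-PD-1 and 3.37, 4.45 and 3.69 in parental tumours under IgG. It exceeded the dim threshold of 3.32 on all 6 parental arrays and on 1 resistant array. It thus met the filter of at least 3 arrays only through the parental arrays, so its entry to the test and its direction are linked. With the filter left out it was still called over both antibodies. The log2 difference was -0.46 ± 0.16 (SE; limma, adjusted p = 0.0388), and where a gene lies at the threshold in 1 group its difference is compressed. The call was lost without any 1 of 7 arrays (parental anti-PD-1 1 and 3, the 3 resistant IgG arrays, resistant anti-PD-1 2 and 3), with differences between -0.57 and -0.30. The other Ms4a2 probe set exceeded the threshold on 0 of 12 arrays, and the mean of both probe sets gave -0.27, which did not pass the test. With the replicate number as a block the call was also lost (limma, adjusted p = 0.0501).

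Kit levels were 3.77, 4.09 and 4.34 in resistant tumours under anti-PD-1 and 4.19, 4.03 and 3.71 in resistant tumours under IgG. In parental tumours they were 4.59, 4.77 and 4.79 under anti-PD-1 and 3.68, 4.62 and 4.39 under IgG. All 3 parental anti-PD-1 arrays exceeded all 6 resistant arrays, while parental IgG array 1 was the lowest of the 12. The log2 difference was -0.45 ± 0.16 over both antibodies (SE; limma, adjusted p = 0.0432) and -0.65 ± 0.23 under anti-PD-1 (SE; limma, adjusted p = 0.0466). The first call was lost without any 1 of 9 arrays, all except parental IgG 1, resistant IgG 1 and resistant anti-PD-1 3, with differences between -0.59 and -0.35. The second was lost without any 1 of 5 of the 6 arrays compared, all except resistant anti-PD-1 array 3, with differences between -0.79 and -0.50, and when dim genes were kept in the test. A second Kit probe set, which lay between 3.59 and 3.89, differed by -0.03 ± 0.07 (SE; limma, adjusted p = 0.791), so the 2 probe sets did not give the same result, and their mean differed by -0.24 over both antibodies and by -0.36 under anti-PD-1, and still passed the test in each.

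Hdc, histidine decarboxylase, makes histamine and was lower in resistant tumours under anti-PD-1. Its levels were 4.47, 3.96 and 4.91 in resistant tumours under anti-PD-1 and 5.55, 4.76 and 5.07 in resistant tumours under IgG. In parental tumours they were 5.12, 5.97 and 7.27 under anti-PD-1 and 4.25, 5.17 and 5.49 under IgG. Parental anti-PD-1 array 3 was the highest and resistant anti-PD-1 array 2 the lowest of the 12. Under anti-PD-1 the lines did not overlap and the log2 difference was -1.67 ± 0.49 (SE), or 3.19-fold lower in resistant tumours (limma, adjusted p = 0.0235). That call was lost without parental anti-PD-1 array 3, resistant anti-PD-1 array 1 or resistant anti-PD-1 array 2, with differences between -2.17 and -1.10, and in a fit of those 2 groups alone. Over both antibodies the difference was -0.76 ± 0.35 (SE; limma, adjusted p = 0.105), and it passed the test, at -1.01, without parental anti-PD-1 array 1. Under IgG the difference was 0.16 ± 0.49 (SE; limma, adjusted p = 0.854).

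A second Hdc probe set read 4.90, 4.84 and 4.81 in resistant tumours under anti-PD-1 and 5.64, 4.93 and 5.00 in resistant tumours under IgG. It read 4.87, 5.23 and 6.28 in parental tumours under anti-PD-1 and 4.64, 4.73 and 4.97 in parental tumours under IgG. Its highest array was again parental anti-PD-1 array 3, but the lines overlapped under anti-PD-1. The difference there was -0.61 ± 0.29 (SE; limma, adjusted p = 0.147). Neutrophils are another source of Hdc, and the mean of S100a8, S100a9, Cxcr2 and Csf3r was 5.12 to 6.30 in resistant tumours under anti-PD-1, 6.20 to 7.19 in resistant tumours under IgG, 5.09 to 7.89 in parental tumours under anti-PD-1 and 5.22 to 6.50 in parental tumours under IgG. The highest of these, 7.89, was on parental anti-PD-1 array 3, the array with the highest Hdc. Of the 6 neutrophil markers listed 4 were tested. Under IgG their median difference was 1.01, with 0 of 4 below 0, and over both antibodies it was 0.30, with 2 of 4 below 0. Under anti-PD-1, where Hdc was lower, all 4 had differences below 0, with a median of -0.40 beside 0.07 over all genes. Cxcr2 among them was lower, by -0.49 (limma, adjusted p = 0.0385), a call lost without parental anti-PD-1 array 3, where it was -0.27, without any 1 resistant anti-PD-1 array and in a fit of those 2 groups alone. Their part in the Hdc values was not tested.

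**Figure D2:**
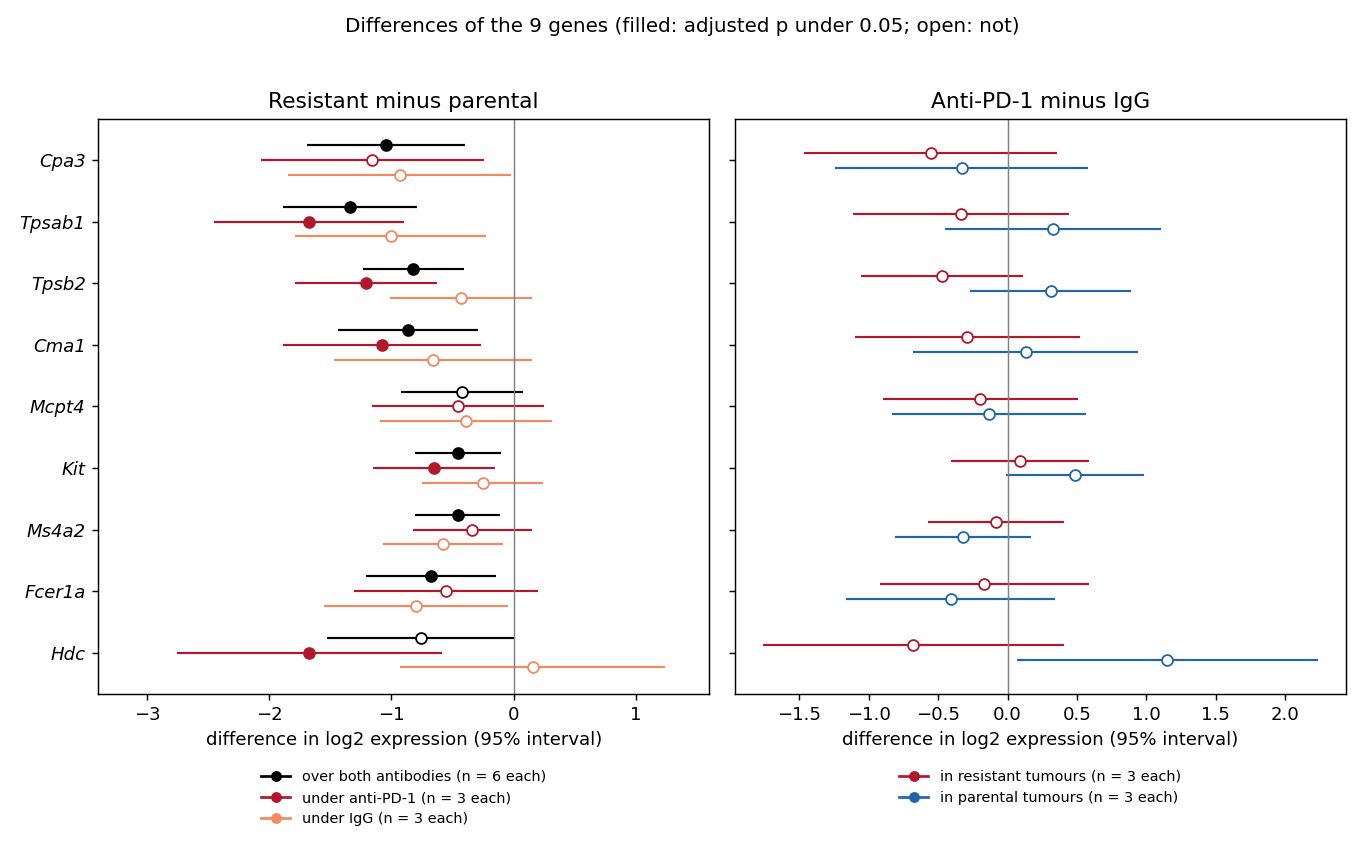
Log2 differences of the 9 genes with 95% intervals from limma, resistant minus parental at left and anti-PD-1 minus IgG at right. Filled points have an adjusted p under 0.05. All 9 points over both antibodies are below 0, 7 of them filled, and no point at right is filled.

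The 4 groups had a similar order across the genes. Resistant tumours under anti-PD-1 had the lowest mean for 8 of the 9 genes, and resistant tumours under IgG had it for Kit. The highest mean was in parental tumours under anti-PD-1 for 5 genes (Tpsab1, Tpsb2, Cma1, Kit and Hdc) and in parental tumours under IgG for 4 (Cpa3, Mcpt4, Ms4a2 and Fcer1a). Neighbours in this order that share a line did not pass a test for any gene, as the antibody comparisons gave 0 calls. Between the lines the arrays did not overlap for 6 of 9 genes under anti-PD-1, beside 15.8% of all genes with resistant tumours wholly lower. They were Cpa3, Tpsab1, Tpsb2, Cma1, Kit and Hdc. Under IgG the arrays did not overlap for 2 of 9, Tpsab1 and Ms4a2, beside 15.2% of all genes.

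Parental IgG array 1 decided the count under IgG. Without it, 5 of 9 genes were lower in resistant tumours, beside 5.45% of all genes: Cpa3 at -1.49, Tpsab1 at -1.35, Cma1 at -1.14, Ms4a2 at -0.81 and Fcer1a at -1.26. A fit that weights each array by its own spread called 7 lower, beside 12.5% of all genes, and that fit called 33.3% of all genes in either direction. The 2 comparisons of lines share no arrays with each other, but that over both antibodies reuses all of them.

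Within parental tumours anti-PD-1 against IgG gave differences from -0.41 for Fcer1a to 1.15 for Hdc, with a median of 0.13 beside -0.01 over all genes. Limma called 0 of 9, beside 3.5% of all genes, and 1 of 9 had an unadjusted p under 0.05, beside 21.9% of all genes. That was Hdc, at 1.15 ± 0.49 (SE; limma, unadjusted p = 0.0397, adjusted p = 0.205). Its 3 anti-PD-1 arrays at 5.12, 5.97 and 7.27 overlapped the IgG arrays at 4.25, 5.17 and 5.49. For every member the antibody groups of the parental line overlapped.

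In resistant tumours 8 of the 9 genes had a mean lower under anti-PD-1 than under IgG, as had 40.8% of all genes. The differences ran from -0.68 for Hdc to 0.09 for Kit, with a median of -0.29 beside 0.03 over all genes. Limma called 0 of 9 and 0% of all genes, and 0 of 9 had an unadjusted p under 0.05, beside 4.76% of all genes. Tpsb2 was the 1 gene with no overlap, at 5.42, 5.53 and 5.89 under anti-PD-1 against 6.04, 6.25 and 5.96 under IgG, where 5.39% of all genes were wholly lower. Its difference was -0.47, with a 95% interval from -1.05 to 0.11.

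Whether the antibody acted differently in the 2 lines was tested as an interaction, the antibody difference in resistant tumours minus that in parental tumours. Limma called 0 of 9 and 0% of all genes. Hdc alone of the 9 had an unadjusted p under 0.05, beside 17.5% of all genes, with an interaction of -1.83 ± 0.70 (SE; limma, unadjusted p = 0.0236, adjusted p = 0.224). The intervals of the others were wide: that of Cpa3 ran from -1.51 to 1.07 and that of Fcer1a from -0.82 to 1.31.

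Other mast cell genes were read from lists chosen by function. Of 15 further granule genes 11 were tested, and 6 were lower and 1 higher in resistant tumours over both antibodies, beside 15% and 25.2% of all genes. Their median was -0.24. Mcpt1, a chymase of mucosal mast cells, read 7.75, 8.11 and 8.44 in resistant tumours under anti-PD-1 and 7.92, 8.77 and 7.89 in resistant tumours under IgG. In parental tumours it read 9.53, 9.07 and 9.66 under anti-PD-1 and 10.25, 10.21 and 9.54 under IgG. The lines did not overlap, and the log2 difference was -1.56 ± 0.20 (SE; limma, adjusted p = 0.000172). Unlike the 9 members, Mcpt1 had its highest level on parental IgG array 1. Its relative Mcpt2, also of mucosal mast cells, differed by -1.07 ± 0.19 (SE; limma, adjusted p = 0.00122).

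Among the genes that handle granules rather than fill them, Rab27b, a small GTPase of granule docking, was higher by 0.56 (limma, adjusted p = 0.00148). Rab27a, on the same list, went the other way and was lower by -0.48 (limma, adjusted p = 0.00758). Lyst, the lysosome trafficking regulator, was lower by -0.40 on its brightest probe set (limma, adjusted p = 0.00252) and differed by -0.12 on the mean of its probe sets, which did not pass the test. Rab27b and Lyst are used by many other secretory cells. Srgn, the proteoglycan core that holds the proteases, differed by -0.53 and did not pass the test (limma, adjusted p = 0.0688).

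Part of the signalling chain behind the IgE receptor was lower in resistant tumours. Of 17 genes listed 16 were tested, and 8 were lower and 0 higher over both antibodies, beside 15% and 25.2% of all genes, with a median of -0.38. Under anti-PD-1 11 were lower, beside 11.9% of all genes, with a median of -0.61, and under IgG 3 were lower, beside 7.31%, with a median of -0.13. Gab2, the adaptor that carries the Fyn signal, differed by -0.97 (limma, adjusted p = 5.02e-05), and by -0.32 on the mean of its probe sets. Its levels were 6.43, 6.80 and 6.77 in resistant tumours under anti-PD-1 and 6.75, 6.71 and 6.47 in resistant tumours under IgG, against 7.76, 7.83 and 8.05 in parental tumours under anti-PD-1 and 7.62, 7.18 and 7.32 in parental tumours under IgG, so the lines did not overlap. The adaptor Grb2 differed by -0.42 (limma, adjusted p = 0.000201), and by -0.20 on the mean of its probe sets. Phospholipase Plcg1 differed by -0.36 (limma, adjusted p = 0.000757), and by -0.13 on the mean of its probe sets, where the call was lost. The kinase Btk differed by -0.54 (limma, adjusted p = 0.0074). Fcer1g, the gamma chain shared with other Fc receptors, differed by -0.31 and did not pass the test (limma, adjusted p = 0.328). These genes serve lymphoid, myeloid and partly tumour cells as well.

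Factors that feed mast cells were also measured. Of 19 growth and lineage genes listed 11 were tested, and 6 were lower and 1 higher in resistant tumours over both antibodies, beside 15% and 25.2% of all genes, with a median of -0.26. Il33, the alarmin that stimulates mast cells through the receptor ST2, read 8.72, 8.68 and 8.68 in resistant tumours under anti-PD-1 and 9.14, 9.0 and 8.99 in resistant tumours under IgG. In parental tumours it read 9.77, 9.25 and 9.57 under anti-PD-1 and 9.63, 9.77 and 9.55 under IgG. All resistant arrays were below all parental ones, and the log2 difference was -0.72 ± 0.08 (SE; limma, adjusted p = 0.000106). Csf2rb, the beta chain shared by the receptors for IL-3, IL-5 and GM-CSF, differed by -0.73 (limma, adjusted p = 0.00262). Il4ra differed by -0.31 (limma, adjusted p = 0.00243), and by -0.20 on the mean of its probe sets, and Il3ra by -0.28 (limma, adjusted p = 0.00261). The 1 gene of the list called higher was Enpp3, by 0.30 over both antibodies (limma, adjusted p = 0.0328). Under IgG alone Enpp3 was higher by 0.46 (limma, adjusted p = 0.0493).

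Kitl, the stem cell factor that Kit binds, had 10.08, 10.13 and 10.10 in resistant tumours under anti-PD-1 and 9.62, 9.38 and 9.66 in resistant tumours under IgG, against 10.69, 10.14 and 9.76 in parental tumours under anti-PD-1 and 10.36, 10.30 and 10.31 in parental tumours under IgG. It differed by -0.43 between the lines over both antibodies (limma, adjusted p = 0.0206), a call lost without resistant IgG array 2, and its differences lay between -0.54 and -0.31 with 1 array left out. Under IgG the Kitl difference was -0.77 (limma, adjusted p = 0.017), and under anti-PD-1 it was -0.09 (limma, adjusted p = 0.726). Its interaction of line and antibody was 0.68 (limma, unadjusted p = 0.0232, adjusted p = 0.223). The transcription factors of the lineage gave smaller values: Gata2 differed by -0.06 (limma, adjusted p = 0.698) and Mitf by -0.21 (limma, adjusted p = 0.424).

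Of 14 lipid mediator and histamine handling genes listed 12 were tested, and 3 were higher and 1 lower over both antibodies, beside 25.2% of all genes higher and 15% lower, with a median of -0.02. Ptgds, a prostaglandin D synthase, was higher by 0.86 (limma, adjusted p = 0.00276), the prostaglandin E receptor Ptger3 by 0.76 (limma, adjusted p = 0.00167; 0.45 on the mean of its probe sets), and the leukotriene C4 synthase Ltc4s by 0.45 (limma, adjusted p = 0.0267). Ptger3 exceeded the dim threshold of 3.32 only on the resistant IgG arrays, at 3.70, 4.28 and 3.40. Its entry to the test and its direction are thus linked. The histamine receptor Hrh1 was lower, at -0.42 (limma, adjusted p = 0.00558), and at -0.20 on the mean of its probe sets, where the call was lost. Ltc4s lost its call without any 1 of 6 arrays (parental IgG 2 and 3, parental anti-PD-1 1 and 2, resistant IgG 2, resistant anti-PD-1 2), with differences between 0.35 and 0.56. Hpgds, the prostaglandin D synthase that mast cells use, differed by -0.07 (limma, adjusted p = 0.637).

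The protease genes sit in 2 gene clusters, which allowed the members to be set beside the genes next to them. In the gene order of GRCm38.p6, Cma1 and Mcpt4 lie on chromosome 14 in a row that also holds Mcpt1, Mcpt2, Mcpt8, Ctsg and granzymes, and Tpsab1 and Tpsb2 lie side by side on chromosome 17. That reference lists Tpsab1 as a transcribed pseudogene, and it was made from a mouse strain other than 129sv/ev. Of 18 cluster genes listed beside the members 13 were tested, and 7 were lower and 0 higher over both antibodies, beside 15% and 25.2% of all genes, with a median of -1.01. The granzymes at the far end of the chromosome 14 row, known from cytotoxic lymphocytes, were among the genes lower in resistant tumours. Gzmg differed by -3.17 (limma, adjusted p = 0.00022), Gzmf by -2.37 (limma, adjusted p = 0.000858), Gzmd by -2.16 (limma, adjusted p = 0.00639) and Gzmc by -1.01 (limma, adjusted p = 0.0231). Gzmg and Gzmf, both among the 7, were bright enough to be tested only through their parental arrays. Their entry to the test and their direction are thus linked. In resistant tumours Gzmg lay between 2.49 and 3.75 and Gzmf between 2.82 and 3.94, around the dim threshold of 3.32. Gzmc lost its call without parental IgG array 2 or resistant anti-PD-1 array 2, with differences between -1.26 and -0.74.

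Between the mast cell proteases and the granzymes lie Mcpt8 and Ctsg, which did not pass the test. Mcpt8, a basophil protease, differed by 0.22 (limma, adjusted p = 0.412), and Ctsg, cathepsin G, by -0.15 (limma, adjusted p = 0.327). On chromosome 17 the transmembrane tryptase Tpsg1, next to Tpsb2, differed by 0.13 (limma, adjusted p = 0.148). Its levels lay between 4.94 and 5.15 in resistant and between 4.73 and 5.02 in parental tumours. Cacna1h, the next gene after Tpsg1, was lower by -3.34 (limma, adjusted p = 1.49e-07). On chromosome 14 Khnyn, separated from Cma1 by Sdr39u1, was lower by -0.84 (limma, adjusted p = 0.000121). Called higher were Nynrin and Sdr39u1 on chromosome 14 and Lmf1, Gng13 and Chtf18 on chromosome 17. Genes of 1 row thus gave both called and uncalled differences.

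**Figure D3:**
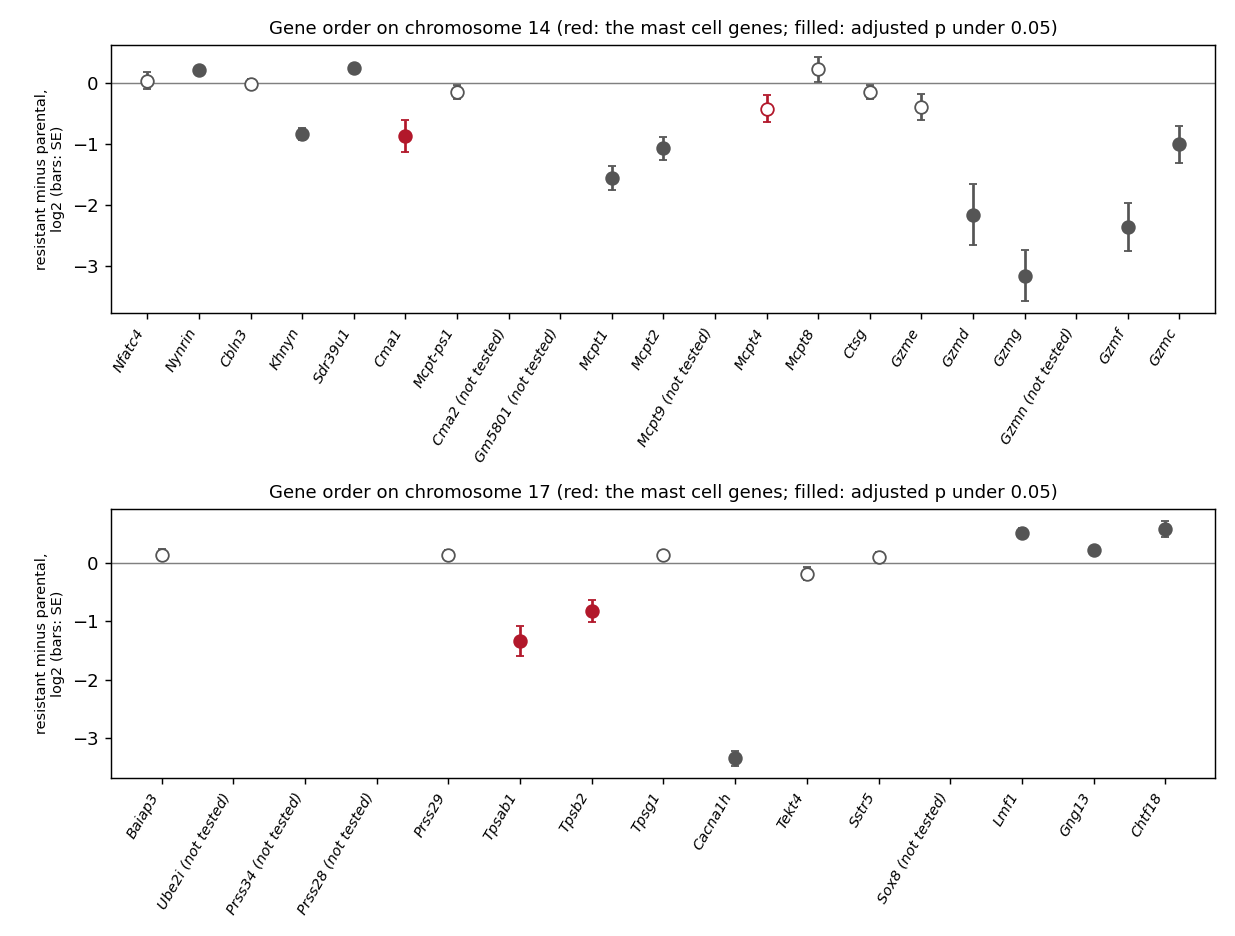
Log2 difference of resistant minus parental tumours over both antibodies, with SE bars, for the genes around Cma1 and Mcpt4 on chromosome 14 (top) and around Tpsab1 and Tpsb2 on chromosome 17 (bottom), in gene order and not to scale. Members are red, filled points have an adjusted p under 0.05, and genes named as not tested have no point. Mcpt8, Ctsg and Tpsg1 have open points close to members that are lower, and Cacna1h and Khnyn, also close to members, have filled points below 0.

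The members followed one another across the 12 arrays. Over their 36 pairs Pearson's r lay between 0.36 and 0.96 with a median of 0.78, and after the group means were taken out it lay between 0.41 and 0.97 with a median of 0.74. These correlations are over 12 arrays of 4 groups, which share their normalization, and are given as a description. When all 15492 other tested genes were ranked by their correlation with Cpa3, Cma1 was first at 0.96 and Fcer1a second at 0.95. Tpsb2 ranked 4, Tpsab1 ranked 6 and Mcpt4 ranked 8. Ms4a2 ranked 66, Kit 419 and Hdc 995 in this ranking over both lines. With the group means taken out Kit had an r of 0.85 with Cpa3, beside 0.84 for Tpsab1 and 0.84 for Mcpt4, and Ms4a2 and Hdc had 0.61 and 0.64.

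The 10 other genes most like Cpa3 were Crebl2, Mcpt2, Vamp8, Bmp4, Mx2, Tgfbr2, Ctsh, Serpinb9, Osbpl7 and Tmsb4x, with r from 0.92 for Crebl2 to 0.85 for Tmsb4x. One of them, Mcpt2, is a mast cell protease, and Vamp8 is a membrane fusion protein of secretory granules in many cell types. They were chosen by their likeness to Cpa3 over both lines, and Cpa3 itself was lower in resistant tumours, so that a lower level there belongs to the choice and is given with no test. Their differences over both antibodies ran from -0.15 for Tmsb4x to -1.25 for Serpinb9. Crebl2 differed by -0.33 on its brightest probe set and by -0.11 on the mean of its probe sets. Tgfbr2 differed by -0.26 on its brightest probe set and by 0.01 on the mean of its probe sets.

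**Figure D4:**
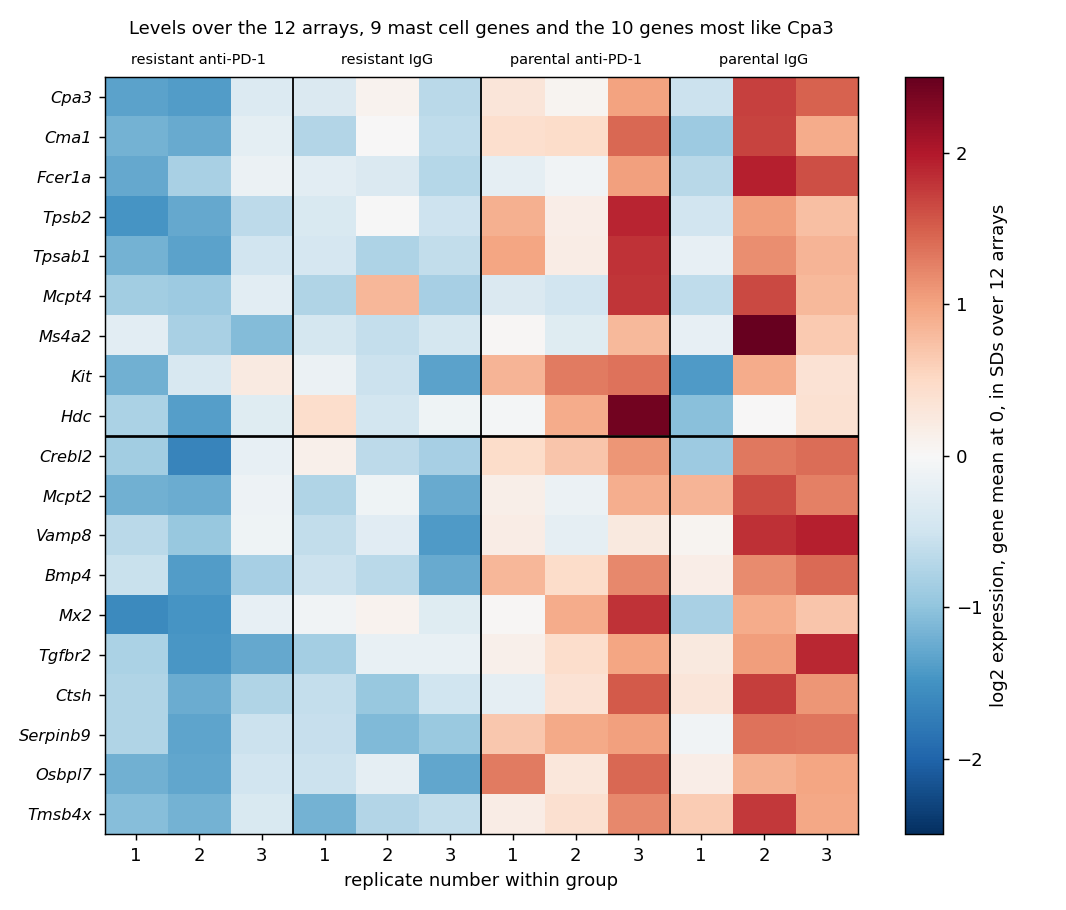
Levels of the 9 genes (above the line) and of the 10 other genes most correlated with Cpa3 (below it) on the 12 arrays, each gene in SDs from its own mean, red high and blue low. The resistant arrays at left are mostly blue, the parental arrays at right mostly red, and parental IgG array 1 is light to dark blue for the 9 genes.

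Markers of other tissues moved with the members on some arrays. The mean of the 9 genes lay between 4.84 and 5.32 in resistant tumours under anti-PD-1, 5.17 and 5.40 in resistant tumours under IgG, 5.71 and 6.50 in parental tumours under anti-PD-1, and 5.13 and 6.34 in parental tumours under IgG. Skeletal muscle markers, of which 5 of 5 were tested, lay between 6.53 and 10.16 in resistant tumours under anti-PD-1 and between 10.05 and 10.90 in resistant tumours under IgG. In parental tumours they lay between 10.39 and 12.06 under anti-PD-1 and between 7.30 and 11.42 under IgG. The lowest parental value of muscle markers and of the 9 genes came from the same array, parental IgG array 1, and the highest of both from parental anti-PD-1 array 3. In resistant tumours the lowest value of the 9 genes, 4.84, was on anti-PD-1 array 2, where muscle markers were at 10.16. The lowest muscle value, 6.53, was on resistant anti-PD-1 array 1, where the 9 genes were at 4.87. Limma called 0 of the 5 muscle genes between the lines over both antibodies, beside 40.3% of all genes. Their median difference was -0.87, with 0 of 5 at an unadjusted p under 0.05. Under anti-PD-1 it called 0 of 5, beside 33.5% of all genes, with a median of -2.53 and 3 of 5 at an unadjusted p under 0.05. Their part in the values of the 9 genes was not tested.

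Fibroblast markers, 6 of 6 tested, lay between 7.84 and 8.11 in resistant tumours under anti-PD-1, 8.09 and 8.71 in resistant tumours under IgG, 7.44 and 9.13 in parental tumours under anti-PD-1, and 6.21 and 7.68 in parental tumours under IgG. Their median difference was 1.21 under IgG, with 3 genes higher and 0 lower, beside 1384 of 15493 genes higher and 7.31% lower. Under anti-PD-1 it was -0.23, with 5 of 6 below 0 and 0 called (limma, 0 of 6 at an unadjusted p under 0.05), beside 33.5% of all genes called. Over both antibodies it was 0.53, with 1 gene higher and 0 lower, beside 25.2% and 15% of all genes. The lowest fibroblast value was again on parental IgG array 1. Adipocyte markers, 3 of 5 tested, had a median of 0.66 over both antibodies. Limma called 0 of 3, beside 40.3% of all genes, and 1 of 3 had an unadjusted p under 0.05. For the cells that also use Kit, the melanocyte genes Tyr, Tyrp1 and Mlana were at or below the dim threshold on every array. The other melanocyte genes listed, Dct, Pmel and Sox10, were tested. Dct was higher over both antibodies, by 0.29 (limma, adjusted p = 0.03), a call lost without some single arrays. Of the 4 progenitor genes Cd34, Flt3, Mpo and Gata1, 0 were called over both antibodies, beside 40.3% of all genes in either direction. In limma 1 of 4 had an unadjusted p under 0.05. Under IgG Cd34 was higher, by 1.16 (limma, adjusted p = 0.0395), a call lost without any 1 of 5 of the 6 arrays compared, all except parental IgG array 2, with differences between 0.82 and 1.42.

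**Figure D5:**
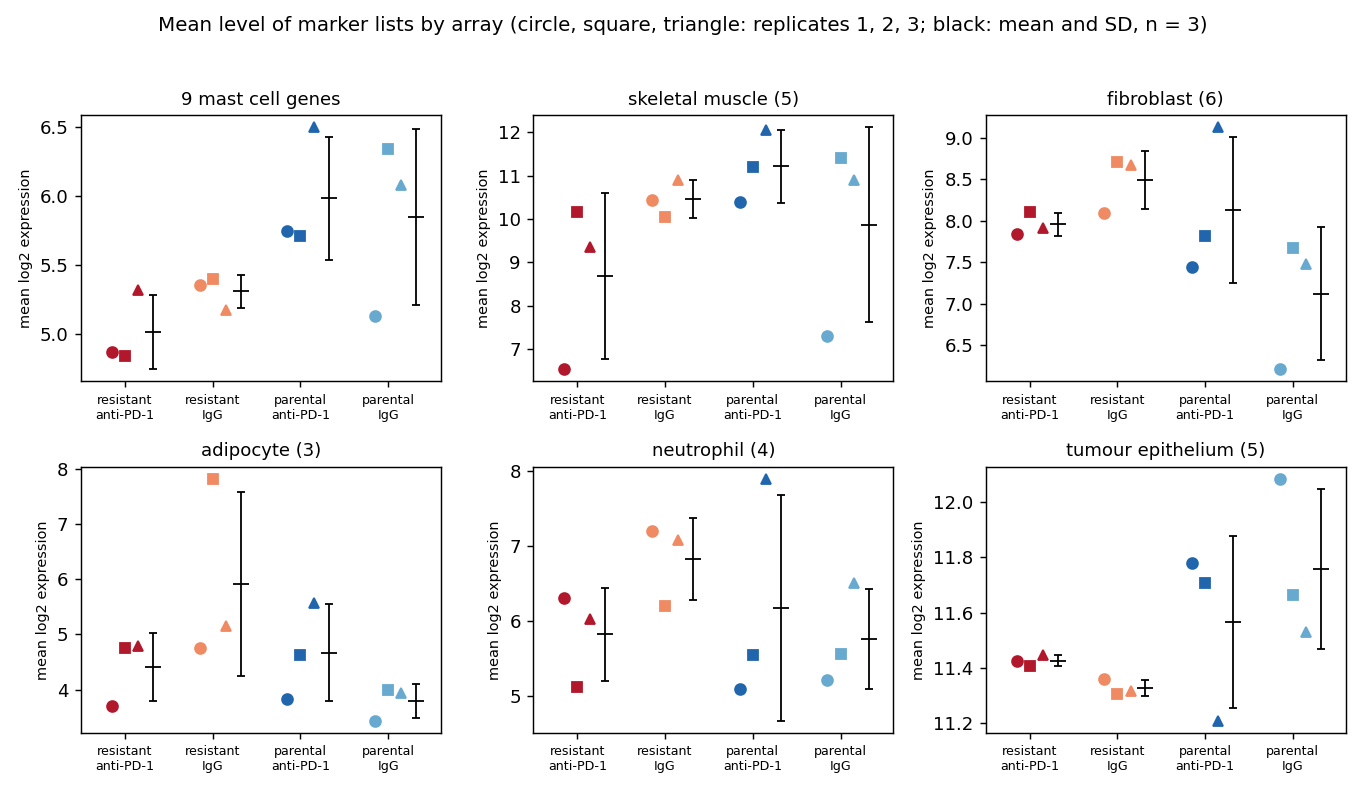
Mean log2 level per array of the 9 mast cell genes and of marker lists for other tissues, with the number of genes tested in brackets, black bars giving the mean and SD of 3 arrays. Parental IgG array 1 is the lowest parental array for the 9 genes, muscle and fibroblast markers and the highest for tumour epithelium.

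The difference between 3′ and 5′ Gapdh control probe sets, a sign of RNA integrity and labelling, was -0.02 to 0.09 in resistant tumours under anti-PD-1, -0.03 to 0.09 in resistant tumours under IgG, 0.21 to 0.38 in parental tumours under anti-PD-1 and 0.14 to 0.29 in parental tumours under IgG. It separated the lines without overlap, and its part in the differences of the 9 genes was not tested. The mean of the tumour epithelium markers lay between 11.31 and 11.45 in resistant and between 11.21 and 12.08 in parental tumours. Of the 5 genes 2 were lower and 1 higher over both antibodies, beside 15% and 25.2% of all genes. Epcam differed by -1.05 (limma, adjusted p = 0.0195), Krt18 by -0.37 (limma, adjusted p = 0.000905) and Krt19 by 0.38 (limma, adjusted p = 0.0317).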

How the data were processed

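RNA from whole tumours was labelled with biotin and hybridised to Affymetrix mouse arrays, per the labels' protocols. Expression came in 1 deposited table on a log2 scale, to 2 decimals, a scale read from its values (1.62 to 13.88). How the authors normalized them is not stated in those sources. The number of arrays, 12, limits the precision.

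Of 45101 probe sets, 34945 carried 1 gene, 932 several and 9160 none, and only the first were used. A gene with several probe sets was represented by the one with the greatest average level. Genes above 3.32, the 25th percentile of all values, on at least 3 arrays were tested. Tests used limma (3.58.1, in R 4.3.3) on the log2 values, with 4 group means over 12 arrays, two-sided, with Benjamini-Hochberg adjustment over 15493 genes within each comparison and a threshold of 0.05. The procedure was tested on simulated data. Groups came from sample titles. Promoters came from RefSeq.

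All 9 members are named, and so are the 10 genes most correlated with Cpa3. From the lists, mostly called genes with the smallest p are named, and several called genes are not named. Some uncalled list genes whose roles bear on mast cells are named too, chosen after their values were seen. The members and lists were chosen with earlier results of these data known. Alternatives left out the dim filter, averaged probe sets or tested each, centred arrays, weighted arrays, used the compared groups only, used the replicate number as a block, or left out arrays.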

Additional observations from a re-analysis of the deposited data

How the results depend on the processing

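The count of the 9 genes called lower in resistant tumours was 6 or 7 over both antibodies under every alternative except leaving out 1 array, where it lay between 3 and 7. Under anti-PD-1 it lay between 2 and 6 with 1 array left out. Under IgG it lay between 0 and 5 with 1 array left out, was 7 with array weights and 6 without parental IgG array 1 and parental anti-PD-1 array 3 together. Leaving out those 2 arrays also gave 1 call for anti-PD-1 in parental tumours, Fcer1a. Same-numbered arrays deviated from their group means with r from -0.208 to 0.636, above 0.1 in 14 of 18 pairs. All 3 pairs passed 0.1 between the 2 resistant groups, where the block changed no call, and 2 of 3 did in each of the other 3 comparisons of 2 groups, so that the numbers were not taken as a pairing of the lines. With the replicate number as a block 6 of 9 were called over both antibodies, without Ms4a2, and 6 under anti-PD-1, with Cpa3 added, and the other counts stayed at 0.

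Differences that changed sign were all uncalled except that of Tgfbr2 (0.0056 on the mean of its probe sets). With 1 array left out the range for Hdc under IgG was -0.20 to 0.42. For anti-PD-1 in parental tumours it was -0.013 to 0.67 for Tpsab1, -0.35 to 0.49 for Cma1 and -0.47 to 0.10 for Mcpt4. In resistant tumours it was -0.33 to 0.048 for Mcpt4 and -0.047 to 0.24 for Kit. For the interaction it was -0.55 to 0.33 for Cpa3, -0.78 to 0.058 for Cma1, -0.30 to 0.27 for Mcpt4, -0.067 to 0.47 for Ms4a2 and -0.038 to 0.71 for Fcer1a. With array weights the antibody difference in parental tumours was -0.19 for Tpsab1, -0.081 for Tpsb2 and -0.27 for Cma1, that of Kit in resistant tumours was -0.033, and the interaction was 0.29 for Cpa3, 0.065 for Cma1 and 0.41 for Mcpt4. Without both arrays named, Hdc under IgG was -0.20, the antibody difference in parental tumours was -0.36 for Tpsab1, -0.22 for Tpsb2 and -0.57 for Cma1, and the interaction was 0.55 for Cpa3, 0.018 for Tpsab1, 0.28 for Cma1 and 0.55 for Mcpt4. The cause was not tested. Among single genes and other settings, 713 of the differences recomputed kept direction and side of the threshold, 23 lost the call, 24 gained it and 16 changed sign. Ms4a2 and the second Tpsb2 probe set lie near the dim threshold, which limits what their differences can show.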

Other observations

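Of 12 cytokines and chemokines of type 2 immunity listed 8 were tested, and 3 were dim on every array. Over both antibodies 3 were lower and 0 higher in resistant tumours, beside 15% and 25.2% of all genes, with a median of -0.20. Besides Il33, Ccl24, an eosinophil chemokine, was lower: it had 7.44, 7.13 and 7.84 in resistant tumours under anti-PD-1 and 7.16, 6.19 and 7.66 in resistant tumours under IgG, against 8.78, 8.02 and 7.96 in parental tumours under anti-PD-1 and 8.70, 8.71 and 8.22 in parental tumours under IgG. The lines did not overlap, with a log2 difference of -1.16 ± 0.25 (SE; limma, adjusted p = 0.00363). Csf2, which encodes GM-CSF, differed by -0.67 (limma, adjusted p = 0.0496), and lost its call without any 1 of 10 arrays, all but parental IgG 3 and parental anti-PD-1 1, with differences between -0.89 and -0.48. Its call was also lost when dim genes were kept in the test, with array weights, with the replicate number as a block, and without parental IgG array 1 and parental anti-PD-1 array 3 together, at -0.47.

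Markers of eosinophils and basophils gave few values. Of 8 eosinophil markers 1 was tested, Il5ra, which differed by -0.41 (limma, adjusted p = 0.0429) and lost its call without any 1 of 10 arrays, all but parental IgG 3 and parental anti-PD-1 3, with differences between -0.55 and -0.31. The basophil protease Mcpt8 read 8.99, 9.69 and 8.54 in parental tumours under anti-PD-1, against 10.78, 10.20 and 9.92 under IgG. It differed by -1.23 ± 0.29 (SE; limma, adjusted p = 0.0469), a call lost without any parental array except anti-PD-1 array 2, with differences between -1.54 and -0.96, and also when dim genes were kept in the test, on the mean of the probe sets of each gene, with each probe set tested on its own, and in a fit of the parental groups alone. It was lost too with array weights, at -0.76, and without parental IgG array 1 and parental anti-PD-1 array 3 together, at -0.72. The other basophil marker tested, Il3ra, differed by 0.22 in the same comparison. In the same tumours Il4ra, a receptor chain for IL-4 and IL-13, read 8.55, 8.34 and 8.66 under anti-PD-1, against 8.08, 8.10 and 8.08 under IgG, a difference of 0.43 (limma, adjusted p = 0.0328) that lost its call without any parental IgG array or without anti-PD-1 array 3, with differences between 0.36 and 0.52, in a fit of the parental groups alone, and without parental IgG array 1 and parental anti-PD-1 array 3 together.

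Of 6 melanocyte genes 3 were tested, and Dct alone was called over both antibodies, at 0.29 (limma, adjusted p = 0.03), beside 25.2% of all genes higher. Dct no longer passed without parental IgG 1, parental anti-PD-1 3, resistant IgG 1 or resistant anti-PD-1 3, with differences between 0.22 and 0.32, nor without parental IgG 1 and parental anti-PD-1 3 together, at 0.21.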
